A study of Mus musculus with 6 samples.

Results

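DNA methylation was described at 10 genes that set the pace of the G1 phase in mouse germinal centre B cells with and without Tet2. The genes are the D-type cyclins Ccnd1, Ccnd2 and Ccnd3, their kinases Cdk4 and Cdk6, the kinase inhibitors Cdkn1a, Cdkn1b, Cdkn2a and Cdkn2c, and the transcription factor Myc. All CpG positions within 10 kb of the span of each gene (GRCm38) were taken if they had a coverage of at least 10 reads in every library. A position is a CpG cytosine on 1 strand. In all, 1777 of 1463044 such positions lay in the 10 windows, from 122 at Ccnd2 to 282 at Cdkn2c.

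The assay was enhanced reduced representation bisulfite sequencing. MspI, a restriction enzyme, cuts the DNA at CCGG, and bisulfite then converts unmethylated cytosines, so that they are read as T. The cells were germinal centre B cells from the spleens of C57BL/6 mice, with 3 libraries labelled Tet2 knock-out (KO) and 3 labelled Tet2 wild-type (WT). Whether Tet2 was deleted in the whole animal or in B cells alone, the age and immunisation of the mice, and any pooling of animals, is not given in the labels used here. Since bisulfite does not tell 5-hydroxymethylcytosine from 5-methylcytosine, a level counts both.

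Tet2 oxidises 5-methylcytosine and so opens a route to its removal. Cyclin D proteins bind Cdk4 or Cdk6 and start the phosphorylation of the retinoblastoma protein, which lets E2F factors switch on the genes of S phase. Inhibitors of the Ink4 family (Cdkn2a, Cdkn2c) block Cdk4 and Cdk6, and those of the Cip/Kip family (Cdkn1a, Cdkn1b) bind cyclin and kinase complexes. In the germinal centre, where B cells divide very fast, cyclin D3 is the D-type cyclin that the cells are known to depend on. Myc appears there in the cells selected to divide again, and the germinal centre factor Bcl6 is known to repress Cdkn1a.

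Coverage summed over CpG positions was 180397494 to 195582108 in KO libraries and 174375503 to 203863392 in WT, where a read over several positions counts at each. Mean coverage of each window was 92.6 to 166 reads per position in every library. At Tet2 itself, on chromosome 3, 6 positions from 133486189 to 133486297 had 32 to 168 reads in the WT libraries and were listed in none of the KO libraries. In the member windows 1 position of Ccnd3 and 2 of Myc were listed in all WT and in no KO library, and 0 the other way round. Each library listed 1578479 to 1639266 positions in KO and 1636082 to 1733270 in WT. The share of such positions over the genome is not given here. As a check of the cell type, the starts of the B-cell genes Cd79b and Cd22 were at 0.303% and 3.71% in KO and 0.246% and 2.91% in WT. The start of the T-cell gene Zap70 was at 94.6% in KO and 94.3% in WT, while those of Cd4 and of the erythroid gene Klf1 were at 0.488% and 0.532% in KO and 0.627% and 0.449% in WT. The start of the germinal centre gene Bcl6 was at 0.143% in KO and 0.0930% in WT. Of the covered marker starts, the one of the myeloid gene Csf1r had every KO library above every WT library (89.1% ± 1.24 in KO and 81.5% ± 5.32 in WT, SD, n = 3 each), and the others overlapped. Its part in the results was not tested.

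Near their starts most of the genes were close to unmethylated in both groups. Transcription starts were taken from the RefSeq promoter table (GRCm38.p6), which matched 7 of the 10 genes with 11 starts. For Ccnd1, Ccnd2 and Myc the gene end with more covered CpGs stood in. Of these 14 starts 13 had covered positions within 1 kb, and 11 had group means under 5% in both groups. The upstream sequences of starts that were densely covered, and of the Ccnd3 start nearest to the change described further on, are shown with every CpG in capitals. Each runs 250 bases up to the base before the start, 5′ to 3′ on the strand of the gene.
Cdkn2a outer start, chr4:89294620-89294869, minus strand: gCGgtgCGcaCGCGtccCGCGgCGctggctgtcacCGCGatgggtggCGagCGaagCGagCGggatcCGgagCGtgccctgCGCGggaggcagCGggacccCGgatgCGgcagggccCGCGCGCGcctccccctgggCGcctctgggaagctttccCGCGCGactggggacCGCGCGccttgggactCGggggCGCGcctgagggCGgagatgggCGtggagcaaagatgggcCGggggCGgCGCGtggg
Cdkn1b, chr6:134920151-134920400, plus strand: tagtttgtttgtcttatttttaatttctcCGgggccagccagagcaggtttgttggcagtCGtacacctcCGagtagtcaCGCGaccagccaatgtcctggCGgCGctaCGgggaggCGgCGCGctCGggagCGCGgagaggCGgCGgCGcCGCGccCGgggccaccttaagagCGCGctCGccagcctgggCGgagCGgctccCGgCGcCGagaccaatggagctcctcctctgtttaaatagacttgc
Cdkn2c outer start, chr4:109666757-109667006, minus strand: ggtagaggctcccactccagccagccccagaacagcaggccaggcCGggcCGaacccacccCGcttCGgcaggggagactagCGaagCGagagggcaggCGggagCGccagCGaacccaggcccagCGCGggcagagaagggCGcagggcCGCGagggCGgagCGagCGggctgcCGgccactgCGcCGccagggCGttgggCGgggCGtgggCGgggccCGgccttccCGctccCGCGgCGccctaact
Ccnd3 inner start, chr17:47593217-47593466, plus strand: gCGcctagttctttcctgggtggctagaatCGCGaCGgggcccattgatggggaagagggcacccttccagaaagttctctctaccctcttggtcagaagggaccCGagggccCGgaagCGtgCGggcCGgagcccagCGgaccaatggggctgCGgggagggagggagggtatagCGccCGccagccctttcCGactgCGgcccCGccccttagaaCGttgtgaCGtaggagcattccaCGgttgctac

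These windows held 40 CpGs at Cdkn2a, 28 at Cdkn1b, 29 at Cdkn2c and 19 at the inner start of Ccnd3, where the median over 32851 promoters of the table was 6. The MspI site CCGG occurred 3 times in each of the first 3 and in 2 places at Ccnd3. Over all promoters 47.1% held at least 1. Covered positions numbered 31, 29 and 36 in the first 3 windows and 0 in that of Ccnd3. Levels in the Cdkn2a window were 0.151%, 0.0794% and 0.321% in KO replicates 1, 2 and 3, against 0.380%, 0.0584% and 0.0810% in WT. Those in the Cdkn1b window were 0%, 0% and 0.112% in KO and 0.101%, 0.158% and 0.0337% in WT. For scale, reads of mitochondrial DNA, at 19 covered positions, were called methylated at 0.254% to 0.410% in KO and 0.244% to 0.416% in WT. The levels of both windows lay within or under that range.

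Cdk4, the kinase partner of the D cyclins, has 4 copies of the E-box CACGTG in the 250 bases before its start. The E-box is the letters that Myc with Max is known to bind, and it reads the same on both strands. It occurred in 6.02% of the promoters of the table, and 7 of the 32851 held 4 or more. The sequence is shown with the E-boxes in capitals.
Cdk4, chr10:127063285-127063534, plus strand: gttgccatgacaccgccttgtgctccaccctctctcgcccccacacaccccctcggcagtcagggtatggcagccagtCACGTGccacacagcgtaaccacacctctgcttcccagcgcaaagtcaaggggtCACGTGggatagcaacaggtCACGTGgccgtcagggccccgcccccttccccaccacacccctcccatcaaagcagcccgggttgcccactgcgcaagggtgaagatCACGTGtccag

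Of the 4 E-box CpGs 1 was covered, on 1 strand, and it had a level of 0% in each of the 6 libraries. Within 1 kb of the Cdk4 start, 24 positions averaged 0.234% ± 0.225 in KO and 0.336% ± 0.279 in WT (SD, n = 3 each). The groups overlapped. The letters of a motif do not show that a factor binds there.

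Around the start of Cdkn2a that lies farther upstream, where the transcript for the Arf protein begins, 162 positions within 1 kb were at 0.708%, 0.771% and 0.961% in KO replicates 1, 2 and 3, against 0.694%, 0.452% and 0.535% in WT. All 3 KO libraries were above the 3 WT libraries, by a mean of 0.253 points. For scale, mitochondrial DNA was at 0.244% to 0.416% over the libraries. Of the 13 covered starts, 11 overlapped, and only this one and the outer start of Ccnd3 had every KO library above. The share over all starts in the genome is not given here. At the inner start of Cdkn2a, where the Ink4a transcript begins, 8 positions averaged 4.30% ± 2.36 in KO and 5.06% ± 1.90 in WT (SD, n = 3 each), and the groups overlapped. Myc was at 0.156% ± 0.0945 in KO and 0.255% ± 0.149 in WT over 79 positions at its denser end. The outer start of Cdkn1a had no covered position within 1 kb, and its inner start was at 0.336% ± 0.142 in KO and 0.520% ± 0.298 in WT.

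The outer start of Ccnd3 was far higher. There, 4 positions within 1 kb upstream were at 69.6%, 77.2% and 75.2% in KO replicates 1, 2 and 3, against 34.5%, 59.5% and 56.7% in WT. All KO libraries were higher than all WT libraries, with means of 74.0% ± 3.94 in KO and 50.2% ± 13.7 in WT (SD, n = 3 each), and WT replicate 1 was the lowest. As a 1 kb tile, from 47504001 to 47505000 on chromosome 17, these positions lay 23.5 points apart and did not pass the test described further on (limma-moderated quasi-binomial, adjusted p = 0.234). Reads summed over the 4 positions numbered 119 to 296 per library. The inner start of Ccnd3, 21 positions within 1 kb, was at 0% in each KO library and at 0.273%, 0.567% and 0% in WT replicates 1, 2 and 3.

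**Figure D1:**
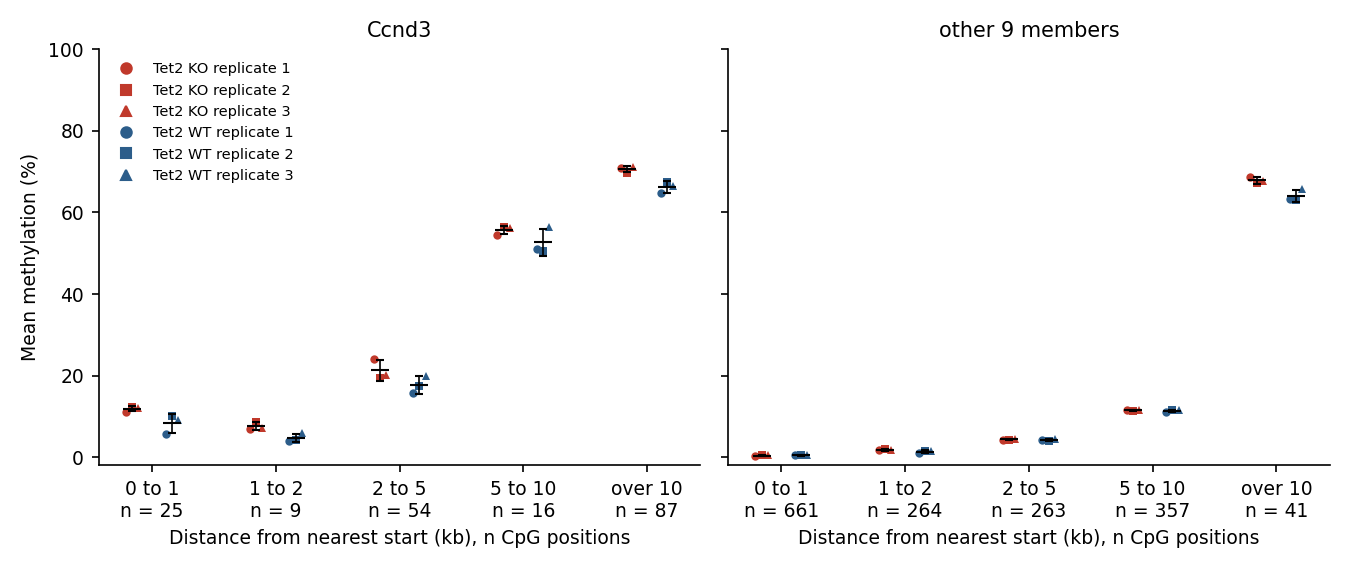
Mean methylation of covered CpG positions (y axis, percent) by distance from the nearest start (x axis, kb, with the number of positions), for Ccnd3 on the left and the other 9 genes on the right. Points are libraries, KO left of WT, and black bars the mean ± SD of 3 libraries. Levels are under 1% within 1 kb of the starts of the other 9 genes and over 60% beyond 10 kb. The KO libraries of these genes lie above the WT libraries beyond 10 kb and at 1 to 2 kb.

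Away from Ccnd3, levels were higher with distance from the starts. In the other 9 genes, 661 positions within 1 kb of a start averaged 0.407% ± 0.0385 in KO and 0.433% ± 0.0260 in WT (SD, n = 3 each). At 1 to 2 kb, 264 positions averaged 1.80% ± 0.204 in KO and 1.34% ± 0.326 in WT, and each KO library was above each WT library. The 263 positions at 2 to 5 kb averaged 4.38% ± 0.158 in KO and 4.23% ± 0.278 in WT. The 357 positions 5 to 10 kb away averaged 11.5% ± 0.0636 in KO and 11.4% ± 0.271 in WT. Groups overlapped within 1 kb and from 2 to 10 kb. Shares over all genes by distance are not given here. The 41 positions beyond 10 kb, 25 in Cdk6 and 16 in Ccnd2, averaged 67.8% ± 0.836 in KO and 64.0% ± 1.42 in WT, and each KO library was above each WT library. In Ccnd3, whose span is long, 87 positions lay beyond 10 kb, at 70.6% ± 0.787 in KO and 66.2% ± 1.45 in WT. There too the lowest KO library was above the highest WT library, as it was within 1 kb (11.8% ± 0.631 in KO and 8.27% ± 2.24 in WT) and at 1 to 2 kb. The 25 positions within 1 kb join 2 unlike starts, so their mean describes neither. They are the 4 of the outer start, at 74.0% in KO and 50.2% in WT, and the 21 of the inner start. The latter were at 0% in KO and 0.280% in WT, so the separation within 1 kb is that of the outer start. At 2 to 5 kb (54 positions, 21.3% ± 2.51 in KO and 17.7% ± 2.12 in WT) and at 5 to 10 kb (16 positions, 55.7% ± 1.07 in KO and 52.7% ± 3.25 in WT) the Ccnd3 groups overlapped.

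The first comparison asked whether methylation of whole windows differed without Tet2. Ccnd3 had the highest level, at 45.5%, 44.0% and 44.8% in KO replicates 1, 2 and 3, against 39.1%, 41.4% and 42.1% in WT. The groups did not overlap, with a difference of 3.89 points (exact two-sided permutation p = 0.1, the smallest that 3 libraries against 3 allow; adjusted p = 0.25 over the 10 genes). Weighted by reads instead of by position, Ccnd3 differed by 0.785 points (exact permutation p = 0.6). The window also holds the ends of the neighbouring genes Taf8 and Bysl, and over the span of Ccnd3 alone the difference was 4.24 points.

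**Figure D2:**
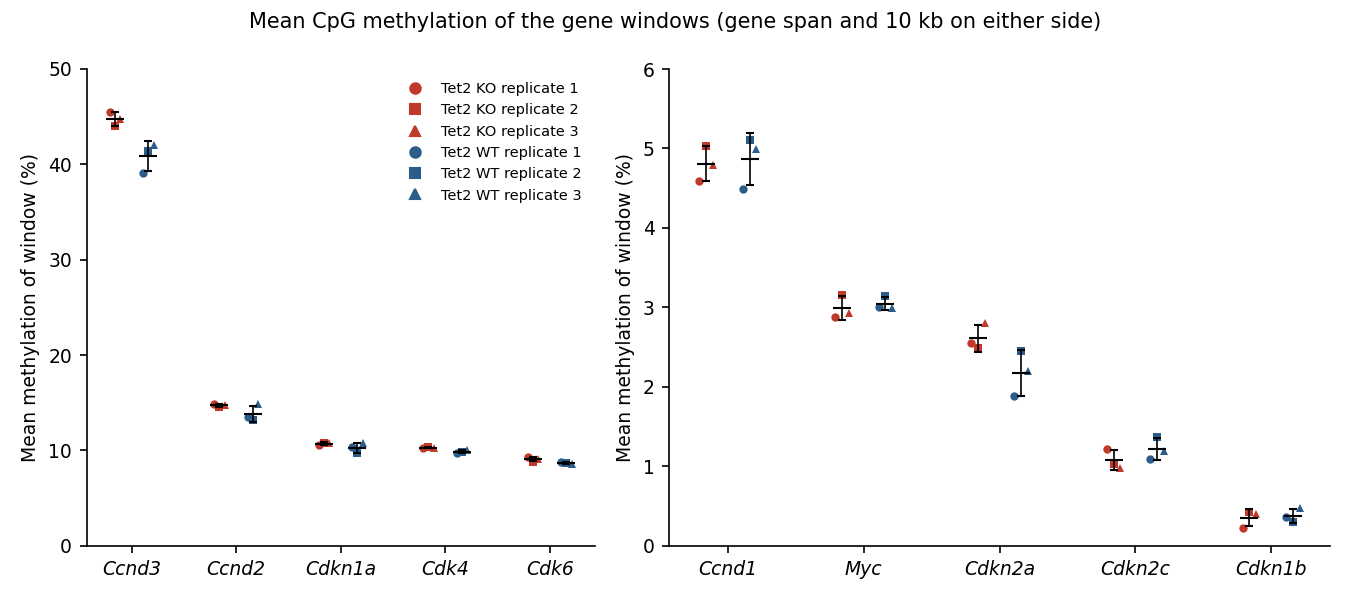
Mean methylation of each gene window (y axis, percent, with a scale for each panel) by library, KO left of WT. Points are libraries and black bars the mean ± SD of 3. Ccnd3 stands at 44.0% to 45.5% in KO and 39.1% to 42.1% in WT, and the other windows reach 14.9% at most.

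Among the kinases, Cdk4 had window levels of 10.2%, 10.3% and 10.2% in KO replicates 1, 2 and 3 and of 9.72%, 9.82% and 9.997% in WT. Cdk6 had levels of 9.27%, 8.82% and 9.11% in KO and of 8.75%, 8.65% and 8.61% in WT. In both the KO libraries lay above the WT libraries, by means of 0.419 and 0.398 points. These sizes depended on the weighting and the window. Cdk4 differed by 2.69 points weighted by reads and by 3.33 points over the 27 positions of the gene span, and Cdk6 by -0.159 points weighted by reads, in the other direction.

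Among the other cyclins, Ccnd2 averaged 14.7% ± 0.141 in KO and 13.8% ± 0.857 in WT, where WT replicate 3 was as high as the KO libraries. Ccnd1 averaged 4.81% ± 0.221 in KO and 4.86% ± 0.328 in WT (SD, n = 3 each). Both overlapped between groups. The Ccnd2 difference was 0.889 points, against 2.17 points weighted by reads and 1.92 over the gene span.

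Of the inhibitors, Cdkn2a was at 2.55%, 2.49% and 2.81% in KO replicates 1, 2 and 3 and at 1.88%, 2.45% and 2.19% in WT. Its lowest KO library was just above its highest WT library, and the difference was 0.440 points, against 1.11 over the gene span. Cdkn1a averaged 10.7% ± 0.110 in KO and 10.3% ± 0.521 in WT, a difference of 0.450 points that was -1.13 weighted by reads and 0.125 over the gene span. The means were, for Cdkn2c, 1.07% ± 0.125 in KO and 1.22% ± 0.135 in WT and, for Cdkn1b, 0.350% ± 0.108 in KO and 0.378% ± 0.0875 in WT (SD, n = 3 each). Myc averaged 2.99% ± 0.148 in KO and 3.04% ± 0.0829 in WT. In these 4 windows the groups overlapped.

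In order of level the windows ran from Ccnd3 through Ccnd2, Cdkn1a, Cdk4, Cdk6, Ccnd1, Myc, Cdkn2a and Cdkn2c to Cdkn1b by the KO means, and in the same order by the WT means. Cdkn1a and Cdk4 overlapped in WT libraries. In sum 4 of the 10 windows had every KO library above every WT library, and in 0 was it the other way round. Over 11944 protein-coding gene windows with at least 50 positions the shares were 32.9% and 0.678%, and 86.1% had a higher mean in KO, against 6 of the 10 members. The median difference over those windows was 0.535 points. The first count was near the share of gene windows in general, and the count with a higher mean in KO was below it.

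The second comparison asked which regions differed. Read counts of single positions were added over 1 kb tiles with at least 3 covered positions, so that a read over several positions counts at each. Tiles with a mean level of 5% to 95% entered a logistic model of the quasi-binomial kind, its dispersion moderated across all tiles with limma's method. To be called, a tile needed an adjusted p below 0.05 and a difference between group means of 10 points or more, with adjustment over the 83114 tiles tested genome-wide. The windows held 34 tested tiles, 15 of them in the Ccnd3 window. Cdkn1b and Myc had none, since their 7 and 6 covered tiles were all under 5%. Among the 34 tiles 1 was called higher in KO, against 0.685% of all tested tiles, and 0 were called lower, against 0.00241%.

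The called tile lies inside Ccnd3, on chromosome 17, with covered positions from 47588693 to 47588840. It was known from earlier results of these data when the genes were chosen, so it is described here and is not independent evidence. Its levels were 84.1%, 79.6% and 76.2% in KO replicates 1, 2 and 3, against 51.1%, 63.7% and 66.7% in WT. The groups did not overlap, and WT replicate 1 was the lowest library. The means were 79.9% ± 3.98 in KO and 60.5% ± 8.28 in WT, a rise of 19.5 points (SD, n = 3 each; limma-moderated quasi-binomial, adjusted p = 0.0302). The tile rests on 9 positions within 148 bp, and reads summed over these positions numbered 807 to 1247 per library. Coverage of the tile relative to the library mean was 0.730 to 0.955 in KO and 0.700 to 1.16 in WT. These positions end 4627 bp upstream of the inner start of Ccnd3, whose upstream sequence is printed above, and the tile begins 82950 bp downstream of the outer start. Exons and introns were not analysed here.

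The call depended on the libraries and on the test. It was lost without KO replicate 1, 2 or 3 or WT replicate 1 (adjusted p = 0.155, 0.108, 0.0692 and 0.0847), at differences of 14.8 to 21.3 points, and it was lost with unmoderated dispersion, with limma on log2 ratios and with all covered tiles tested (adjusted p = 0.486, 0.411 and 0.139).

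**Figure D3:**
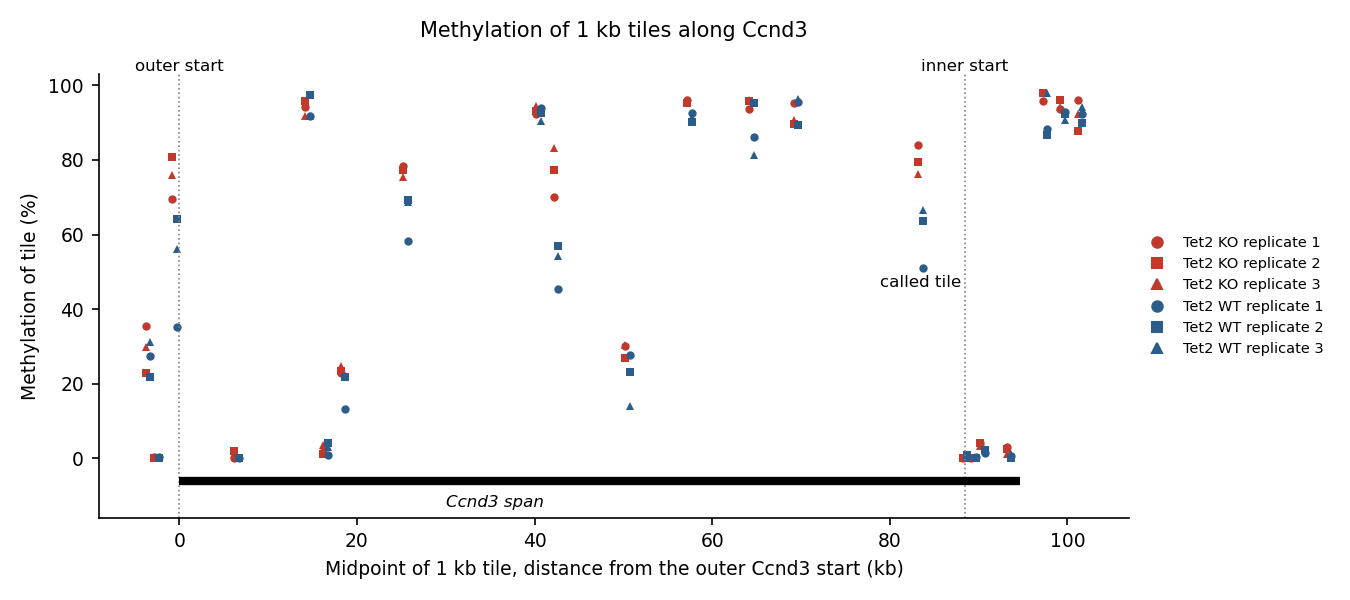
Methylation of the covered 1 kb tiles along Ccnd3 (y axis, percent) against the distance of the tile's midpoint from the outer start (x axis, kb), with 3 KO and 3 WT libraries as points, drawn slightly left and right. The black bar is the gene span and dotted lines are starts. The called tile, upstream of the inner start, has KO libraries at 76.2% to 84.1% and WT libraries at 51.1% to 66.7%, while tiles at the inner start are near 0% in all libraries.

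Within the called tile 8 of the 9 positions had a higher mean in KO, and 3 had every KO library above every WT library. Single positions were tested in the same way as tiles, with p-values adjusted over 525213 positions. Of the 202 tested in the 10 windows, 3 were called higher, all in Ccnd3, and 0 lower, against 0.284% and 0.0105% of all tested positions. Every KO library was above every WT library at 28 of the 202, against 8.3% of all tested positions, and below at 6, against 4%. These counts include positions of the called tile, with the called positions 47588740 and 47588794 among them. That tile was known when the genes were chosen, so the counts are not independent evidence. Position 47588740, on the forward strand, was at 72.4%, 77.6% and 65.8% in KO replicates 1, 2 and 3, against 31.3%, 52.6% and 42.3% in WT (152 to 263 reads; adjusted p = 0.0315, limma-moderated test). Position 47588794, on the reverse strand, was at 89.8%, 92.7% and 78.1% in KO, against 46.8%, 66.7% and 63.5% in WT (159 to 237 reads; adjusted p = 0.0142). At both the groups were well apart. The third called position, 47534814 on the reverse strand, lies nearer the outer start and is the single covered position of its tile. It was at 50.2%, 33.0% and 31.9% in KO, against 4.94%, 29.7% and 12.9% in WT (158 to 344 reads; adjusted p = 0.0171), so that the highest WT library came close to the lowest KO library. Without KO replicate 1 or WT replicate 1, none of the 3 was called (lowest adjusted p = 0.170 and 0.207, limma-moderated test). Limma on log2 ratios called 0 of the 202, with 21 (10.4%) at an unadjusted p under 0.05, against 6.49% of all tested positions.

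**Figure D4:**
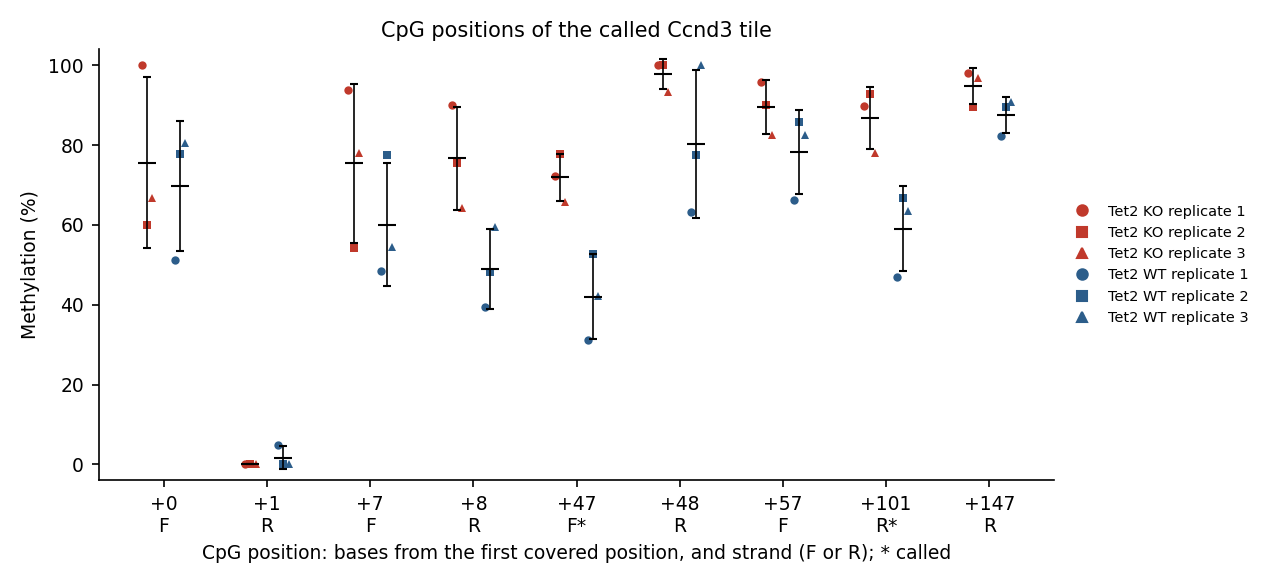
Methylation (y axis, percent) of the 9 covered CpG positions of the called Ccnd3 tile, in order (x axis, bases from the first position, and strand; an asterisk marks positions that were called). Points are libraries, KO left of WT, and black bars the mean ± SD of 3. The called positions stand at 65.8% to 92.7% in KO and 31.3% to 66.7% in WT, and the second position is near 0% in all libraries.

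Neighbouring positions of the tile differed in level. The first CpG, read on both strands, was at 75.6% ± 21.4 in KO and 69.8% ± 16.3 in WT on the forward strand (SD, n = 3 each). On the reverse strand it was at 0% in each KO library and at 4.94%, 0% and 0% in WT replicates 1, 2 and 3, with 30 to 110 reads. Of 375 CpGs read on both strands in the windows this was the 1 whose strands were over 50 points apart, against 2.03% of such CpGs in the genome. With all such positions left out, an alternative added after seeing the data, the tile had a difference of 20.9 points (limma-moderated, adjusted p = 0.0191). The last position, 147 bases from the first, was already high, at 94.8% ± 4.55 in KO and 87.6% ± 4.57 in WT.

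Elsewhere in the Ccnd3 window the partly methylated tiles lay higher in KO as well, and did not pass. The tile from 47547001 to 47548000 had the largest difference in the 10 windows. It was at 70.1%, 77.3% and 83.1% in KO replicates 1, 2 and 3, against 45.4%, 57.0% and 54.3% in WT. The groups did not overlap, and the difference of 24.6 points had an adjusted p of 0.0668 (limma-moderated test). It rests on 3 forward-strand positions with 38 to 119 reads at each, or 114 to 348 per library when summed over positions. The tile from 47530001 to 47531000 was at 77.0% ± 1.48 in KO and 65.4% ± 6.25 in WT (SD, n = 3 each; adjusted p = 0.183). Of the 15 tested tiles 13 had a higher mean in KO and 7 had every KO library above every WT library, against 12.7% of all tested tiles. None had every KO library below, against 3.54%. Without the called tile, 12 of 14 had a higher mean in KO and 6 had every KO library above.

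Along the Ccnd3 window, differences were larger in partly methylated tiles than in highly methylated ones. Outside the gene span lie the partly methylated tiles from 47501001 (over Taf8) and 47504001. The highly methylated tiles from 47602001, 47604001 and 47606001 (over Bysl) lie outside it too. The 7 Ccnd3 tiles with a mean of 20% to 80% over all 6 libraries differed by a median of 11.6 points, from 2.59 to 24.6, against a median of 2.73 points over the 22968 tested tiles in that band. These tiles include the called one, known when the genes were chosen, and the median of the other 6 was 9.56 points. The 8 Ccnd3 tiles over 80% differed by a median of 1.79 points, against 0.961 over 53434 tiles. Cutting bands on the mean of all libraries draws tiles with large differences into the middle band, in Ccnd3 and elsewhere. WT replicate 1 was the lowest library in 5 of the 15 Ccnd3 tiles, against 29.99% of all tested tiles. These 5 are the Ccnd3 tiles, of the 7 in the 20% to 80% band, in which every KO library was above every WT library. The called tile is among them, and without it the count was 4 of 6. Over the genome, 4125 of the 22968 tested tiles in that band had every KO library above every WT library.

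**Figure D5:**
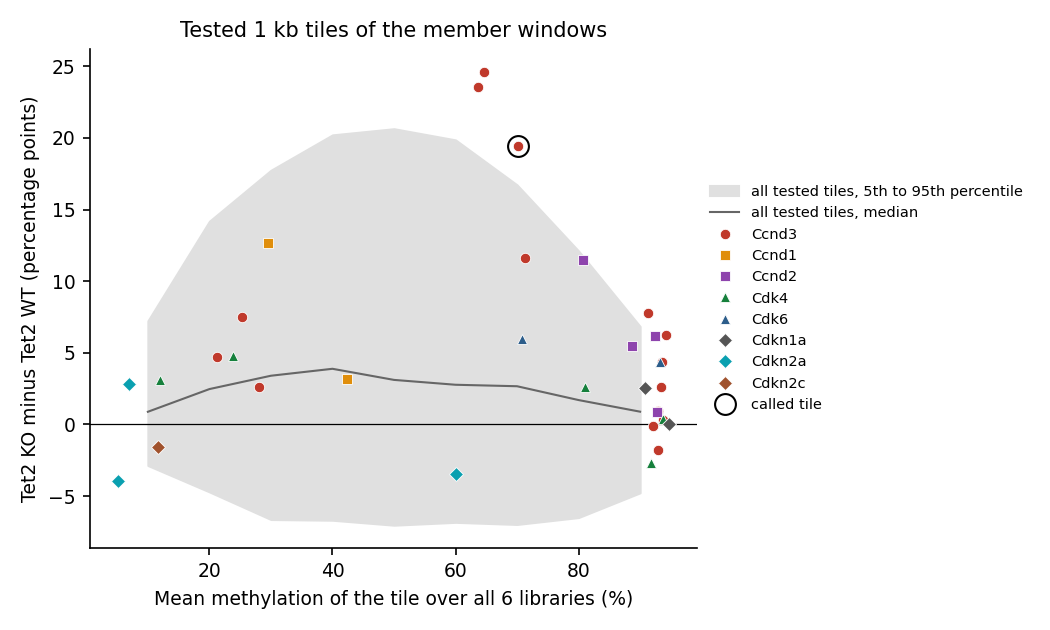
Difference between group means, KO minus WT (y axis, percentage points), against the mean level over all 6 libraries (x axis, percent) for the 34 tested tiles. The grey band is the 5th to 95th percentile of all tested tiles in bins of 10 points, and the line their median. Ccnd3 tiles near 65% reach 24.6 points, the ringed one was called, and tiles of the inhibitor genes lie between -3.92 and 2.86 points.

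In the windows of the other genes no tile was called. Without Ccnd3 there were 19 tested tiles in 7 genes, of which 15 had a higher mean in KO, with a median difference of 2.86 points. An unadjusted p under 0.05 was found for 3 of them, against 11.5% of all tested tiles, which is near that share. In Ccnd2 the tile from 127129001 to 127130000 on chromosome 6 was at 87.0%, 86.5% and 85.8% in KO replicates 1, 2 and 3, against 67.8%, 70.8% and 86.4% in WT. WT replicate 3 lay among the KO libraries, and the difference of 11.5 points did not pass (adjusted p = 0.137, limma-moderated test). Without WT replicate 3 it was 17.1 points and called (adjusted p = 0.00579). All 4 tested Ccnd2 tiles had a higher mean in KO, from 0.888 to 11.5 points.

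In Ccnd1 the tile from 144932001 to 144933000 on chromosome 7 was at 29.7%, 30.03% and 47.6% in KO replicates 1, 2 and 3, against 25.4%, 22.1% and 21.9% in WT. The groups did not overlap, and KO replicate 3 stood apart from the other two. The difference of 12.7 points did not pass (adjusted p = 0.351, limma-moderated test) and was 4.05 points with the 6 positions weighted equally. Without KO replicate 3 it was 6.74 points. A second Ccnd1 tile differed by 3.16 points.

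The tile of Cdk4 that begins just after the start, from 127064001 to 127065000 on chromosome 10, was at 27.3%, 25.4% and 25.9% in KO replicates 1, 2 and 3, against 16.0%, 22.8% and 25.4% in WT. All KO libraries were above the WT libraries, by the narrowest of margins at WT replicate 3, and the difference of 4.79 points did not pass (adjusted p = 0.495, limma-moderated test). Without WT replicate 1 it was 2.11 points. The other 4 Cdk4 tiles, of which 2 overlap Marchf9 and 1 Agap2, differed by -2.70 to 3.08 points. In Cdk6 the tile from 3491001 to 3492000 on chromosome 5 was at 73.7% ± 2.88 in KO and 67.8% ± 9.80 in WT (SD, n = 3 each; adjusted p = 0.645), a difference of 5.94 points that was 0.368 points without WT replicate 2.

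The inhibitor genes held 6 tested tiles, and their differences were small in both directions. In Cdkn2a the tile from 89274001 to 89275000 on chromosome 4, at the end of the gene, was at 8.34% ± 1.71 in KO and 5.48% ± 1.93 in WT (SD, n = 3 each; adjusted p = 0.394, limma-moderated test). The Cdkn2a tile from 89281001 to 89282000, just inside the inner start, was at 3.18% ± 2.78 in KO and 7.10% ± 7.47 in WT, where WT replicate 2 stood apart at 15.7% (adjusted p = 0.852). The tile downstream of Cdkn2c, from 109658001 to 109659000, was at 10.9% ± 2.40 in KO and 12.5% ± 2.60 in WT, and that upstream of Cdkn1a, from 29084001 to 29085000 on chromosome 17, at 92.0% ± 2.64 in KO and 89.5% ± 1.73 in WT (adjusted p = 0.806 and 0.737).

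A wider list of 31 genes of the G1 to S transition was set beside the members. It holds E and A cyclins, Cdk1 and Cdk2, further inhibitors, retinoblastoma and E2F family genes, regulators such as Skp2 and Trp53, and partners and relatives of Myc. Its windows held 77 tested tiles in 25 of the 31 genes. Of these 59 had a higher mean in KO. The test called 1 higher, against 0.685% of all tested tiles, and 0 lower, against 0.00241%. The median difference was 1.97 points, against 3.12 over the members' tiles and 1.28 over all tested tiles. The share with a higher mean in KO was 76.6% in the wider list, 82.4% in the members and 64.0% over all tested tiles. Without Ccnd3, whose called tile was known when the genes were chosen, the members' share was 78.9% and their median 2.86 points.

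The called tile lies in Rbl2, a retinoblastoma family gene, on chromosome 8 from 91098001 to 91099000. It was at 80.2%, 88.7% and 86.9% in KO replicates 1, 2 and 3, against 57.5%, 61.3% and 69.3% in WT, with no overlap. The rise was 22.6 points (adjusted p = 0.0415, limma-moderated test, 4 positions) and it stayed called with WT replicate 3 left out. With any other library left out it was lost (limma-moderated test, adjusted p = 0.0885 to 0.186). The next smallest p-values belonged to E2f3, E2f1 and Mnt, an antagonist of Myc. Their tiles had differences of 7.28, 11.96 and 11.3 points, which did not pass (adjusted p = 0.0551, 0.103 and 0.186). The tile in the E2f1 window lies outside the span of E2f1, over Necab3 and Actl10. Its midpoint is 16925 bp from the E2f1 start. With positions weighted equally the E2f3 tile differed by 10.5 points and the Mnt tile by 6.73.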

How the data were processed

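The submitters' processing notes name Bismark and GRCm38, with no version. Per the file headers, the deposited tables give for every CpG cytosine its read count (coverage) and the percent of reads with C or T, and none of the counts was under 10. From the deposited counts and percent values the numbers of methylated and unmethylated reads followed, whole at 100% of positions to within the rounding. The labels do not say that replicates are separate animals, so the p-values reflect a spread that may be technical. PCR copies could not be recognised.

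Tiles and positions were tested across the genome in Python 3.11.15 with a quasi-binomial logistic model. Its dispersion (4 residual degrees of freedom) was moderated as in limma 3.58.1, Benjamini-Hochberg adjustment followed, and the code was tested on simulated data. Gene spans and promoters come from RefSeq (GRCm38.p6). The members, lists and tests were chosen with earlier results of these data known. Tiles were named if called or, for each gene, if they had the smallest p or the largest difference, and in the wider list the genes with the 4 smallest p-values; the other tiles were named after their values were seen. Group means are unweighted means of libraries. Some marker genes are not reported here.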

Additional observations from a re-analysis of the deposited data

How the results depend on the processing

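The main counts were 571 tiles and 1545 positions called genome-wide, 1 tile and 3 positions in the member windows and 1 tile in the wider list. With 1 library left out in turn these were 124 to 1164 tiles, 555 to 3691 positions, 0 to 2 member tiles, 0 to 6 member positions and 0 to 2 tiles of the wider list. With all covered features tested they were 33 tiles, 242 positions and 0, 0 and 0 in the members and the wider list. Unmoderated dispersion called 0 tiles and 35 positions, with 0 tiles and 0 positions in the members and 0 tiles in the wider list, while 7633 tiles (9.18%) had an unadjusted p under 0.05, 4 of the 34 (11.8%) in the members. Limma on log2 ratios called 0 tiles and 0 positions, 0 in the members and 0 in the wider list, with 7810 tiles (9.40%) at an unadjusted p under 0.05, 6 of the 34 (17.6%) in the members. At least 5 positions per tile left 345 tiles, and 0 in the wider list. The causes were not tested.

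With a replicate block 905 tiles were called, 1 of them in the members, and 0 positions, 0 in the members, with 20 member positions (9.90%) at an unadjusted p under 0.05, against 8.91% of all tested positions. Deviations of same-numbered libraries were hardly correlated (r = 0.00220 to 0.0229, against -0.0203 to 0.0150 for the other pairs). The labels do not say whether such libraries were prepared together, and with 3 libraries per group these values cannot decide it.

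Differences of 5 windows changed sign under some setting. With 1 library left out Ccnd1 ranged from -0.244 to 0.0645 points (0.0493 without KO replicate 1, 0.00786 without WT replicate 3), Cdkn1b from -0.0683 to 0.0336 (0.0185 without WT replicate 3) and Myc from -0.136 to 0.00323. At a coverage minimum of 20 Ccnd1 was at 0.157 and Cdkn1b at 0.0329. Weighted by reads, Ccnd1 was at 0.0251, Cdk6 at -0.159 and Cdkn1a at -1.13.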
